A study of Saccharomyces cerevisiae with 8 samples.

Results

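Budding yeast genes whose transcripts are known to carry short reading frames ahead of the main coding region were examined with tags that mark single RNA 5' ends. The genes are GCN4, CPA1, CLN3, YAP1, HAP4, SCO1, INO2, SCH9, HOL1 and UGA3, which are 10 of 6008 nuclear protein-coding genes in the R64 annotation. They were chosen by name, and each was measured over a 5' window on its own strand. The window runs from 1000 nt upstream of the start codon, or from the nearest coding region on the same strand, to 50 nt inside the coding region. An upstream frame here is any ATG in the window with at least 2 sense codons before its first in-frame stop.

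All libraries came from BY4741, a haploid laboratory strain labelled Mat a with his3delta1, leu2delta0, ura3delta0 and met15delta0, harvested in mid-log growth on YPD, a rich medium, at 30 °C. Total RNA (60 µg) was treated with phosphatase, which blocks uncapped 5' ends from ligation, and each of 2 biological replicates was divided among 4 treatments. The treatments were 5 units of TAP (Tobacco Acid Pyrophosphatase), of Cap-Clip Acid Pyrophosphatase or of Decapping Pyrophosphohydrolase, which turn a capped end into a ligatable one, or no enzyme. The 4 aliquots of a culture therefore share its RNA, and a difference between treatments concerns which ends were captured, not what the cells did. The study compared the enzymes as tools for mapping transcription start sites, with 2 libraries per treatment.

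A ribosome that scans from the cap meets an upstream ATG before the main one, and translation of the short frame usually lowers translation of the gene. In GCN4, 4 short frames hold translation down until amino acids run short, while in CPA1 the peptide made from the upstream frame stalls ribosomes when arginine is plentiful. Whether an RNA is subject to such control depends on where it starts, because an RNA that begins downstream of the frame does not contain it. The share of tags that start before each frame's ATG is therefore the quantity given first. It does not depend on how the libraries were scaled.

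The sequences that the results below turn on are given on the coding strand from the R64 (sacCer3) reference. In the first set, capitals mark the upstream frame, whole where its stop lies within the stretch. The GCN4 frames lie 361, 293, 176 and 151 nt upstream of the start codon, on the minus strand of chromosome V.
GCN4 frame 1, chrV:140107-140136: gatcattgaaaaATGGCTTGCTAAaccgat
GCN4 frame 2, chrV:140039-140068: attaagagaattATGTGTTAAatttattga
GCN4 frame 3, chrV:139922-139951: ccaattgctatcATGTACCCGTAGaatttt
GCN4 frame 4, chrV:139897-139926: attttattcaagATGTTTCCGTAAcggtta
CLN3 frame, chrI:67818-67847, minus strand: tctgccagtcaaATGGATTTCTGAggaaag
SCO1 frame, chrII:311484-311513, minus strand: cattagaaacgtATGTTCGTATAAggcaag

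The next stretches are the main start of GCN4 tags, 571 nt upstream of the start codon, and 3 starts that, among the enzymes, were captured almost only with Decapping Pyrophosphohydrolase. Capitals mark the first base of the tag. The stretch of UGA3 is shown because its strongest single start is the A of the start codon, which is in capitals.
GCN4 start 571 nt upstream, chrV:140320-140349: atataatagatatacAaaacaaaacaaaac
GCN4 start 592 nt upstream, chrV:140341-140370: cttgacagtacttatCttcttatataatag
GCN4 start 184 nt upstream, chrV:139933-139962: ttgttttgttaccaaTtgctatcatgtacc
GCN4 start 37 nt upstream, chrV:139786-139815: agttttgtttaccaaTttgtctgctcaaga
UGA3 start codon, chrIV:156303-156332, plus strand: tttttaaagtgaggtATGaattatggcgtg

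Libraries held between 1268757 and 10739034 tags with an enzyme, and 736236 and 80721 tags in no-enzyme replicates 1 and 2. Tag levels are CPM, tags per 1000000 tags of the library, and a mean is followed by its SD, over n = 2 libraries where no n is given. Intervals are Wilson intervals at 95% for the share in 1 library and cover counting error only. Between genes, fewer RNA molecules and poorer capture of their ends cannot be told apart.

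Over the 6 enzyme-treated libraries the windows spanned a wide range of levels. GCN4, the transcriptional activator of amino acid synthesis, led with 727 CPM (SD 136, n = 6), and INO2, an activator of phospholipid synthesis genes, was lowest among the genes measured over their full leader with 11.6 CPM (SD 4.02, n = 6). YAP1, the oxidative stress regulator, had 57.2 CPM (SD 23.7), SCO1, a mitochondrial copper chaperone, 40.9 CPM (SD 6.24), and CLN3, the G1 cyclin, 28.7 CPM (SD 3.27). HOL1, a polyamine transporter, had 24.3 CPM (SD 11.4), SCH9, a nutrient-signalling kinase, 24.1 CPM (SD 4.45), UGA3, the activator of GABA use, 19.9 CPM (SD 7.39), and HAP4, the regulatory subunit of the activator of respiratory genes, 17.4 CPM (SD 3.48). From YAP1 down to INO2, neighbours in this order overlapped in their range over the 6 libraries, whereas GCN4 stood apart. A tag marks a single 5' end, so these levels do not depend on transcript length.

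CPA1, a subunit of carbamoyl phosphate synthetase, needs a separate word. The annotation lists its upstream frame as a coding region of its own, YOR302W, so the window by the rule ends 56 nt upstream of the start codon and held only 1 to 14 tags per enzyme-treated library (mean 1.64 CPM, SD 0.688, n = 6). When YOR302W was not taken as a boundary, a choice made after the data were seen, the window reached 626 nt upstream and held 134.6 CPM (SD 10.99, n = 6). Values for the CPA1 frame below come from this longer window.

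**Figure D1:**
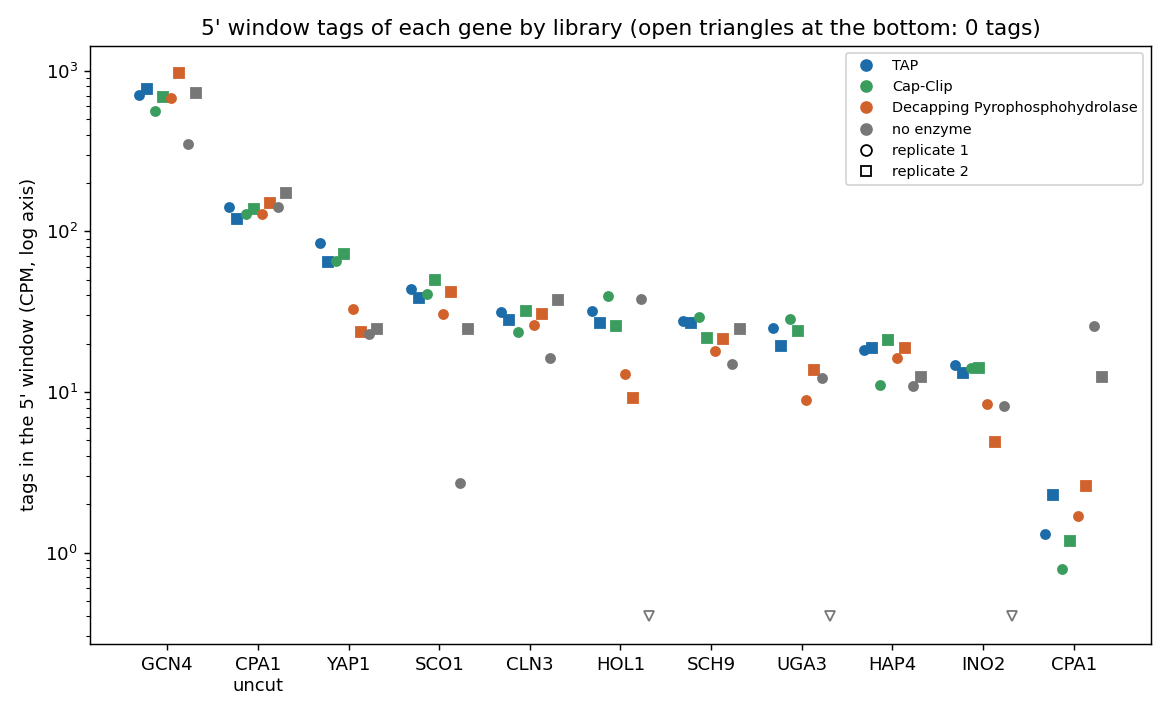
Tags in the 5' window of each gene in CPM (log axis), with 1 point per library, genes ordered by their mean over the 6 enzyme-treated libraries and open triangles for windows with 0 tags. GCN4 stands between 350.4 and 968 CPM in all 8 libraries, and CPA1 appears with and without the cut at YOR302W.

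The genes fell into those whose tags began almost wholly before the frame, those whose tags began around it, and those whose tags began after it. Frames with at least 10% of the window's tags before them, as a mean over the 6 enzyme-treated libraries, are called carried below. Among 3573 genes with at least 20 tags in every enzyme-treated library, 779 (21.8%) had a carried frame.

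GCN4 belonged to the first kind with TAP and Cap-Clip. Frame 1 was preceded by 97.7% and 98.4% of window tags in TAP replicates 1 and 2, by 96.3% and 96.7% with Cap-Clip, and by 74.0% and 74.9% with Decapping Pyrophosphohydrolase. Without enzyme the shares were 17.4% of 258 tags and 72.9% of 59 tags. The 3 enzyme groups did not overlap, and the Decapping Pyrophosphohydrolase libraries stood more than 20 percentage points below the other 4. The median tag that started before frame 1 did so 210 or 212 nt ahead of its ATG in each of the 6 enzyme-treated libraries.

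The shares before frames 3 and 4 were closer together. With TAP 98.8% (SD 0.255) of tags started before frame 3, with Cap-Clip 97.9% (SD 0.198) and with Decapping Pyrophosphohydrolase 92.7% (SD 0.721). Before frame 4 the means were 98.9% (SD 0.12), 98.1% (SD 0.12) and 95.1% (SD 0.339). The leader between frames 2 and 3 held 18.1% (SD 0.191) of GCN4 tags with Decapping Pyrophosphohydrolase, against 0.666% (SD 0.0977) with TAP and 1.15% (SD 0.161) with Cap-Clip. In CPM, this stretch held 148 (SD 36.0), 4.90 (SD 0.450) and 7.09 (SD 0.0106) respectively, and 84.2 (SD 21.1) without enzyme. Tags before frame 1 amounted to 724 CPM (SD 43.5) with TAP, 601 CPM (SD 84.9) with Cap-Clip and 612 CPM (SD 160) with Decapping Pyrophosphohydrolase, so those 3 means lay within the spread of the last group.

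Most YAP1 tags also preceded its frame of 6 codons, which lies 85 nt upstream. The shares were 96.5% and 96.5% with TAP, 100% and 96.2% with Cap-Clip, and 93.2% and 90.2% with Decapping Pyrophosphohydrolase. Both Decapping Pyrophosphohydrolase libraries were below the other 4, although the second of them held 82 tags, with an interval from 81.9% to 94.97%. The strongest start lay 154 nt upstream and took 10.98% to 23.7% of tags.

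HOL1 tags began mainly 457 nt upstream, well before the frame of 6 codons at 215 nt, through which polyamines are known to control its translation. The shares before the frame were 97.9% and 100% with TAP, 98.0% and 97.2% with Cap-Clip, and 95.7% and 90.6% with Decapping Pyrophosphohydrolase. In the no-enzyme library with HOL1 tags, 42.9% of 28 tags preceded it.

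HAP4 has a long leader with many ATGs, and all 9 frames in its window were carried. The frames described here have 9 codons, at 249 nt upstream, and 3 codons, at 61 nt. Shares before the first ranged from 89.7% to 96.9% over the 6 enzyme-treated libraries, and before the second from 95.4% to 100%. Apart from a broad main cluster, with its strongest start at 271 nt, HAP4 had a group of starts around 908 nt upstream. Tags before the farthest carried frame, 810 nt upstream, made up 22.4% and 15.2% with TAP, 14.3% and 18.4% with Cap-Clip, and 31.0% and 41.5% with Decapping Pyrophosphohydrolase. The Decapping Pyrophosphohydrolase shares were above the other 4, but rested on 9 of 29 and 27 of 65 tags.

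**Figure D2:**
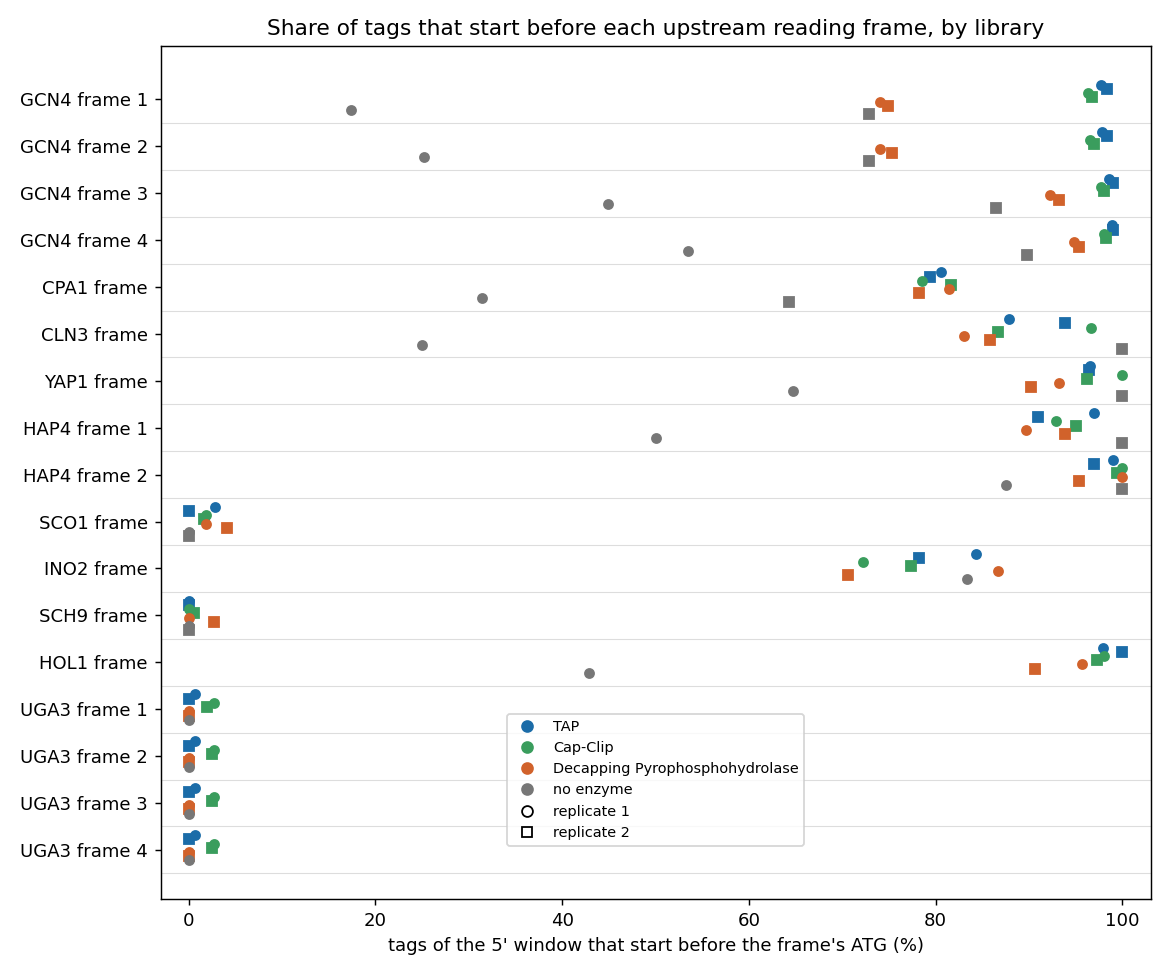
Percent of window tags that start before the ATG of each described upstream frame, with 1 point per library (libraries with 0 window tags have none). The GCN4 points of Decapping Pyrophosphohydrolase sit at 74.0% and 74.9% for frame 1, left of the TAP and Cap-Clip points, while SCO1, SCH9 and UGA3 stay under 5% in all libraries.

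CLN3 tags began just in front of the frame. The frame has 3 codons and lies 315 nt upstream, and the strongest starts were 321, 328 and 324 nt upstream. The share before the ATG was 87.9% and 93.9% with TAP, 96.7% and 86.7% with Cap-Clip, and 83.0% and 85.8% with Decapping Pyrophosphohydrolase. The median of those tags began 9 to 13 nt before the ATG, against 210 or 212 nt in GCN4 and 69 or 75 nt in YAP1. A further 0% to 12.8% of tags began inside the frame.

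CPA1 tags were divided by its frame of 25 codons, which lies 134 nt upstream. Before the frame started 80.5% and 79.4% of tags with TAP, 78.5% and 81.6% with Cap-Clip, and 81.4% and 78.2% with Decapping Pyrophosphohydrolase. The 3 groups overlapped, with means of 79.99% (SD 0.785), 80.1% (SD 2.18) and 79.8% (SD 2.26). Between 17.3% and 20.9% of tags began inside the frame, and 1.91% to 5.52% exactly at the A of its ATG. Only 0.614% to 1.91% began past it. Without enzyme 31.4% of 105 tags and 64.3% of 14 tags preceded it.

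INO2 showed a different arrangement, with a frame of 19 codons that begins 20 nt upstream and runs into the coding region. Between 70.6% and 86.7% of tags preceded its ATG in the enzyme-treated libraries, with 15 to 159 tags each and intervals as wide as 46.9% to 86.7%. The strongest start was 40 nt upstream. Inside the coding region began 11.8% (SD 4.98, n = 6) of INO2 tags, and 8.9% of the 3573 genes had at least that share.

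In SCO1, SCH9 and UGA3 few tags preceded the frames. SCO1 has a frame of 3 codons 49 nt upstream, before which started 2.78% and 0% of tags with TAP, 1.92% and 1.66% with Cap-Clip, and 1.82% and 4.11% with Decapping Pyrophosphohydrolase. Starts ran over the frame, and 5.45% to 12.8% of tags began exactly at the A of its ATG, 27.3% to 35.8% anywhere in it. The strongest start, 34 nt upstream, lay past its stop.

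The SCH9 frame of 54 codons begins 599 nt upstream. None of the 298 and 47 TAP tags preceded it, nor did any of the tags in replicate 1 of Cap-Clip and of Decapping Pyrophosphohydrolase. In replicate 2 of those enzymes 0.543% and 2.70% did. A count of 0 among the 298 tags has an interval up to 1.27%. Between 28.1% and 70.2% of tags began inside the frame, where the strongest starts, 445 and 436 nt upstream, lie near its 3' end.

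UGA3 has 4 frames between 67 and 33 nt upstream, and 0% to 2.78% of tags in any enzyme-treated library preceded any of them. Its strongest start was the A of the start codon itself, with 41.5% and 50.0% of tags with TAP, 36.1% and 34.5% with Cap-Clip and 31.2% and 33.3% with Decapping Pyrophosphohydrolase. A further 7.39% to 18.8% of tags began past that A. The next ATG in frame is codon 117 of UGA3. At or inside the coding region began 51.1% (SD 9.11, n = 6) of tags, a share that 1.88% of the 3573 genes reached.

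**Figure D3:**
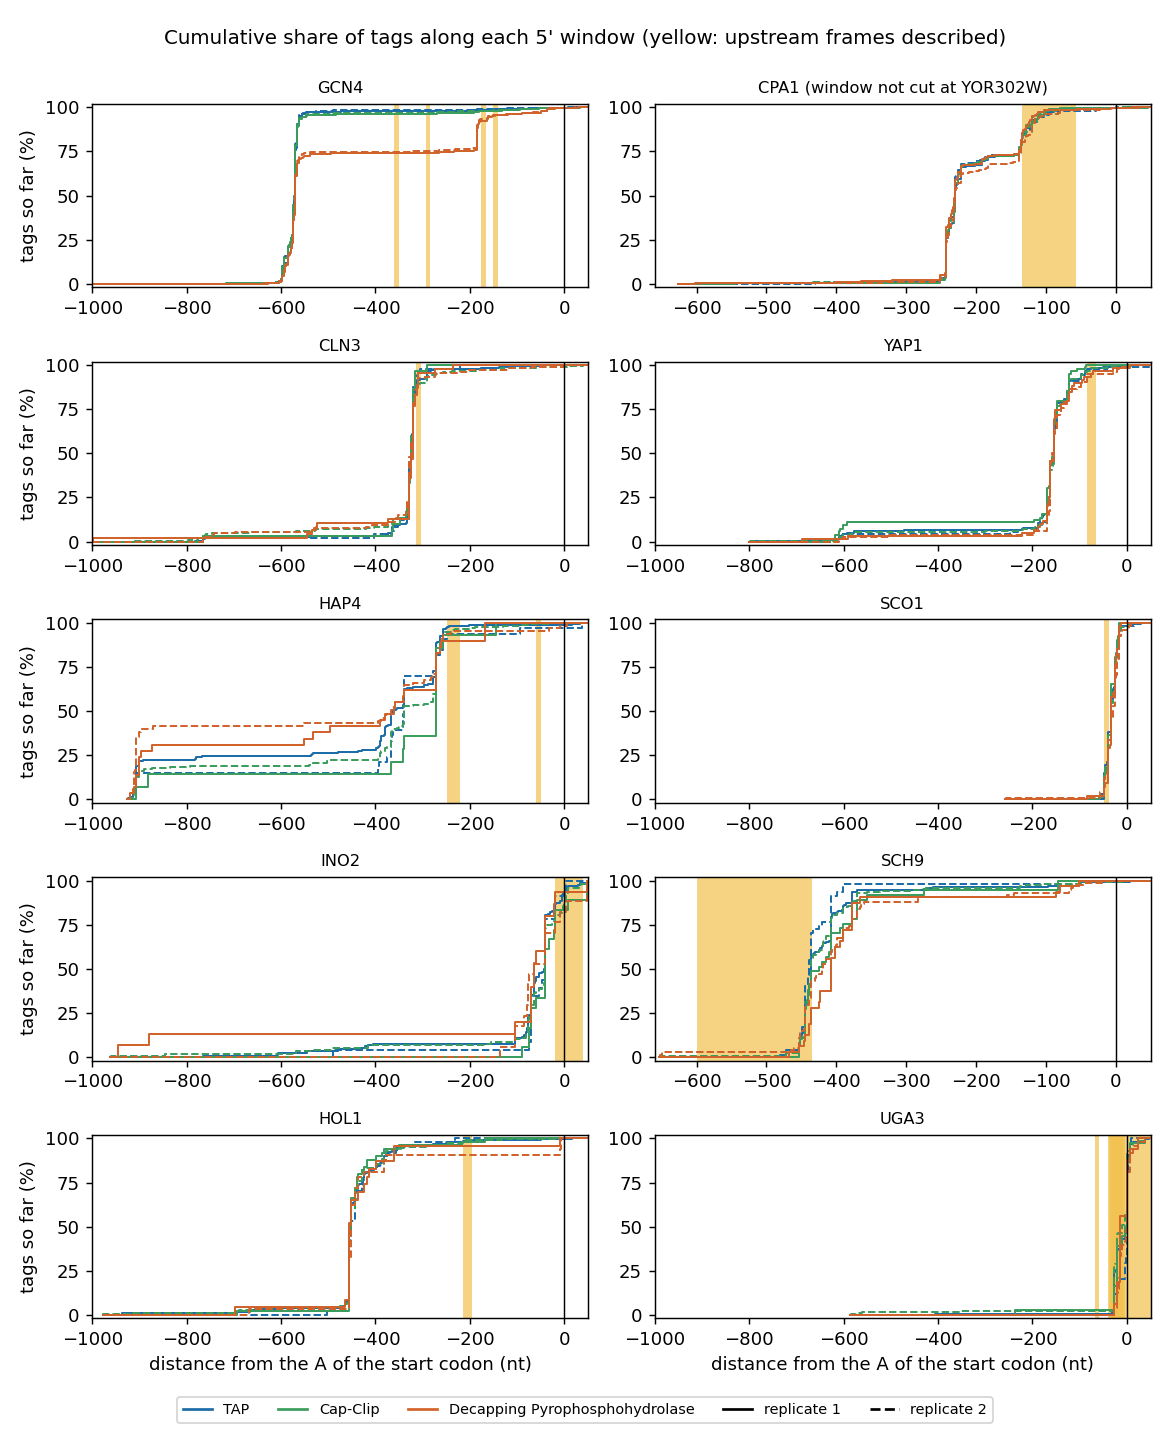
Cumulative percent of window tags against distance from the A of the start codon (nt) for the 6 enzyme-treated libraries, with described frames in yellow. The curves climb mainly before the frames in GCN4, YAP1, HAP4, HOL1 and CPA1, close to the frame in CLN3 and INO2, and inside or after it in SCO1, SCH9 and UGA3.

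The shift of starts across the first carried frame was tested in 1795 genes with edgeR's diffSpliceDGE, which compares the tags before and after the ATG within a gene. Of the 6 members tested, 1 was called with Decapping Pyrophosphohydrolase against TAP, where 9.86% of all genes were called, and 1 against Cap-Clip (6.8% of all genes). Both calls were GCN4. The difference in its share before frame 1 was -23.58 percentage points against TAP (adjusted p = 1.84e-21) and -22.1 against Cap-Clip (adjusted p = 1.55e-16). Over all genes, 1.67% and 1.56% were called with fewer tags before the frame, against 8.19% and 5.24% with more. GCN4 stood at 96.35% or more in every TAP and Cap-Clip library, which left little room for a rise. Its direction therefore cannot be set against these shares, which include genes with as little as 10% of tags before the frame.

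HAP4 differed in the other direction and did not pass the test. More tags preceded its frame at 810 nt with Decapping Pyrophosphohydrolase, by 19.93 points against Cap-Clip (adjusted p = 0.0506) and by 17.49 against TAP (adjusted p = 0.0752). With the replicate as a block, the comparison with Cap-Clip passed (adjusted p = 0.0321). Without Decapping Pyrophosphohydrolase replicate 1, both passed (adjusted p = 0.0216 and 0.0464). YAP1 (adjusted p = 0.212 and 0.186), HOL1 (0.259 and 0.422), CLN3 (0.586 and 0.754) and INO2 (0.762 and 0.913) were not called against TAP or Cap-Clip. Cap-Clip against TAP gave 0 calls among the 6 by edgeR, with GCN4 at an unadjusted p of 0.00364, and 0.39% of all genes were called.

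CLN3, GCN4, HOL1 and YAP1 had a carried frame and at least 20 tags in every enzyme-treated library. In all 4 of them, both Decapping Pyrophosphohydrolase libraries had fewer tags before the frame than either TAP library and than either Cap-Clip library. Among the 779 genes, 29.5% showed this against TAP and 27.2% against Cap-Clip. None of the 4 had more tags before the frame in this sense, where 26.4% and 22.5% of genes did. That outcome was not possible for HOL1 against TAP or YAP1 against Cap-Clip, since 1 library there already stood at 100%. In all 4 genes the room for it was limited, with shares of 86.72% or more in every TAP and Cap-Clip library. The 779 genes were not matched for share or number of tags. HOL1 held only 23 and 32 tags with Decapping Pyrophosphohydrolase, and the nearest CLN3 libraries stood at 85.85% and 86.72%. HAP4, which differed in the other direction, and INO2 were outside this count, with 14 and 18 tags in Cap-Clip replicate 1. Between Cap-Clip and TAP, 1 of the 4, GCN4, had non-overlapping groups, with fewer tags before the frame with Cap-Clip (17.7% of genes; 19.6% had more). The exact permutation test, 2-sided, cannot go below p = 0.33 with 2 libraries against 2, and it reached that value in these 4 genes. Over the 84 comparisons of frames and treatments made in this way, the smallest adjusted p was 0.622. For CPA1 the difference was -0.188 points against TAP and -0.278 against Cap-Clip (adjusted p = 0.867 and 0.822).

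Single positions within the windows were compared next. The test covered 29 GCN4 positions, and with Decapping Pyrophosphohydrolase 17 were higher and 2 lower than with TAP (edgeR's quasi-likelihood test, adjusted p under 0.05), where 26.2% of 28308 positions in all genes were higher and 11.1% lower. Of the 17, 10 lay before frame 1 and 7 after it began. The 7 are all the positions tested after frame 1 began, and each held at most 3 tags in any TAP or Cap-Clip library. They therefore passed the count filter through the Decapping Pyrophosphohydrolase libraries, and their direction was fixed by that filter. The same holds before frame 1 for the starts 592, 591, 589 and 551 nt upstream of the start codon. Those held at most 4 tags in any TAP or Cap-Clip library. All these GCN4 calls against TAP follow TMM scaling. With library totals alone 12 GCN4 positions were higher and 2 lower, 5 of the 12 before frame 1 and again 7 after it began, while 3590 positions over all genes were higher and 10606 lower. Against Cap-Clip 16 were higher and 2 lower, where 22.2% and 8.91% of all positions were (31.1% in either direction). Over all 10 genes, 23 of 53 tested positions were called against TAP and 23 against Cap-Clip. Without Decapping Pyrophosphohydrolase replicate 2 these counts were 8 and 8, without TAP replicate 1 the first was 11, and without Cap-Clip replicate 2 the second was 11.

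The strongest of these starts was 184 nt upstream of the GCN4 start codon, between frames 2 and 3 and 8 nt before the ATG of frame 3. Its level was 58.7 and 69.8 CPM with Decapping Pyrophosphohydrolase, 0 and 1.15 CPM with TAP, and 0.788 and 0.236 CPM with Cap-Clip. Without enzyme it was 2.72 CPM (2 tags) and 49.6 CPM (4 tags). Pooled over libraries, Decapping Pyrophosphohydrolase stood 412-fold above TAP, where 2 tags were counted (exact 95% counting interval 113 to 3420). Above Cap-Clip it stood 215-fold (72.8 to 1050). These intervals leave out the spread between replicates. They also leave out that the start passed the count filter through the Decapping Pyrophosphohydrolase libraries and was named for its large change.

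Other positions showed the same order of levels. The neighbouring start at 185 nt had 27.4 and 57.2 CPM with Decapping Pyrophosphohydrolase and at most 0.279 CPM with TAP or Cap-Clip. At 37 nt upstream, past all 4 frames, the levels were 6.15 and 8.62 CPM with Decapping Pyrophosphohydrolase, while TAP had 0 tags and Cap-Clip 1. The pooled Decapping Pyrophosphohydrolase level stood 32.4-fold above a floor of 3 tags over both TAP libraries, with its own counting error left out. The start at 163 nt, just past frame 3, had 8 and 21 tags with Decapping Pyrophosphohydrolase and 0 with TAP and Cap-Clip. In the same way it stood 22.9-fold and 17.9-fold above a floor of 3 tags with TAP and with Cap-Clip.

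Upstream of frame 1, the start at 592 nt, named after its values were seen, had 8.94 and 15.2 CPM with Decapping Pyrophosphohydrolase and at most 0.788 CPM in the TAP and Cap-Clip libraries. In contrast, the main start at 571 nt was of similar height with all enzymes. It had 201 and 230.1 CPM with TAP, 174 and 192 CPM with Cap-Clip, and 145 and 190.3 CPM with Decapping Pyrophosphohydrolase, and it was not called (log2 fold change 0.34 against TAP after TMM scaling, adjusted p = 0.232).

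**Figure D4:**
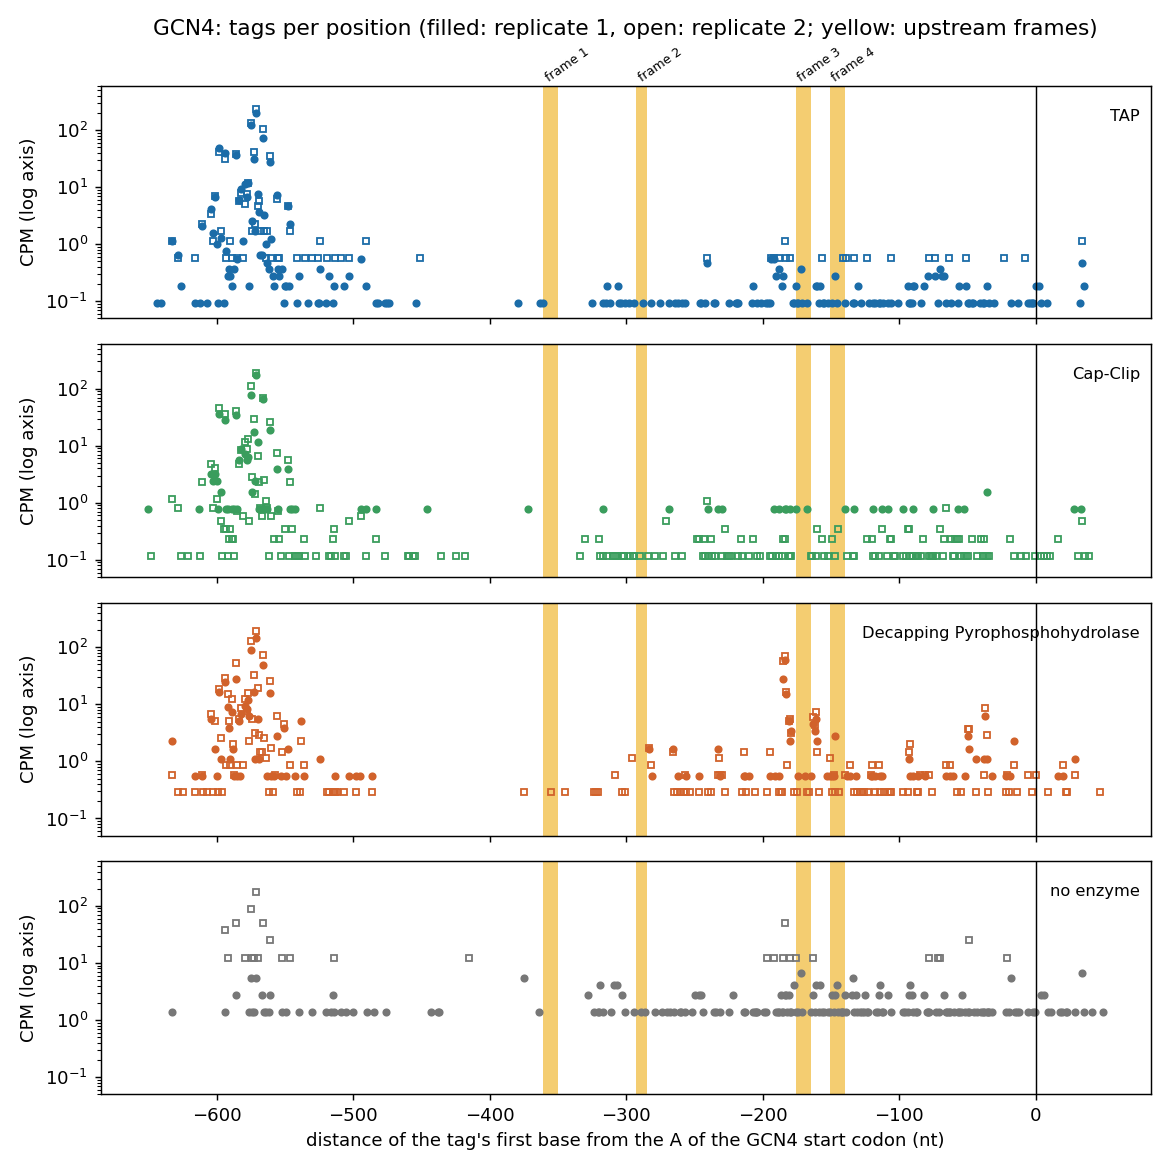
GCN4 tags per position in CPM (log axis) against distance from the A of the start codon (nt), in 1 panel per treatment, with filled and open points for replicates 1 and 2 and the 4 upstream frames in yellow. The main cluster around 571 nt upstream is present with each enzyme, and the peak at 184 nt rises to 58.7 and 69.8 CPM with Decapping Pyrophosphohydrolase.

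The bases at these starts differed from the usual ones. Yeast transcription commonly starts at a purine that follows a pyrimidine, and 79.9% of all tested positions and 15 of 29 in GCN4 had that step. Of the 17 GCN4 positions higher with Decapping Pyrophosphohydrolase than with TAP, 3 had it, and 9 began with a pyrimidine (52.9%). These 9 were also the only ones with a pyrimidine among the 29 GCN4 positions tested (31.0%). Over all genes, 22.9% of the 7411 higher positions and 7.6% of tested positions began with a pyrimidine. By fitted log2 fold change, 11 GCN4 positions rose by over 4, of which 9 began with a pyrimidine, while 76.0% of 1447 such positions did so over all genes. These 11 held at most 4 tags in any TAP or Cap-Clip library, and their fitted values depend on the prior count where TAP had no tags. They passed the count filter only through the Decapping Pyrophosphohydrolase libraries, so that filter fixed their direction. By the number of such positions GCN4 ranked 15th among 4281 genes with a tested position, of which 545 had at least 1. This rank was not set against the number of positions tested per gene, which was 29 in GCN4 of 28308 over all genes.

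The starts at 184 and 37 nt share the stretch ttaccaaTt around the first base of the tag, shown as the capital. Among the 28308 tested positions, 2 had these 9 letters in this place, and both were the GCN4 starts. The letters were read from those 2 starts, so finding both was certain, and the count tests nothing. The shorter stretch CCAA directly before the first base stood at 0.194% of all tested positions and at 0.553% of the higher ones. It puts an A before the first base, so no start with the pyrimidine-purine step can have it. That step stood at 79.9% of tested and 54.8% of higher positions, so the 2 shares of CCAA cannot be compared as they stand. The alignment was noticed after the values were seen.

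In the other 9 genes, 24 positions were tested and none began with a pyrimidine. No position was tested in CPA1. The windows of these genes averaged at most 57.2 CPM, against 727 CPM for GCN4. Starts as weak relative to the window as those of GCN4 could therefore miss the count filter. With Decapping Pyrophosphohydrolase against TAP, CLN3 at 321 nt (log2 fold change 1.02, SE 0.364, adjusted p = 0.0276) and SCO1 at 16 nt (1.18, SE 0.416, adjusted p = 0.0263) were higher. UGA3 at 28 nt (-2.21, SE 0.729, adjusted p = 0.0173) and YAP1 at 149 nt (-2.34, SE 0.546, adjusted p = 0.00102) were lower. Both higher calls rest on TMM scaling, since with library totals the 12 member positions called higher were all in GCN4 and 14 were lower. Against Cap-Clip the UGA3 position and 4 YAP1 positions were lower. Cap-Clip against TAP gave 0 calls among the 53 member positions by edgeR, with 2 at an unadjusted p under 0.05, where 0.00707% of all positions were called.

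Whole windows were compared with edgeR's quasi-likelihood test. Among the 9 windows tested with Decapping Pyrophosphohydrolase against TAP, 4 were higher and 2 lower, where 23.5% and 23.9% of 5134 windows were. HOL1 was at 12.8 and 9.20 CPM with Decapping Pyrophosphohydrolase, 31.7 and 26.9 with TAP and 39.4 and 25.7 with Cap-Clip, so its groups did not overlap (log2 fold change -0.79 against TAP, SE 0.273, adjusted p = 0.0269). YAP1 was at 33.0 and 23.6 CPM, against 84.6 and 64.7 with TAP and 65.4 and 72.0 with Cap-Clip (-0.77 against TAP, SE 0.179, adjusted p = 0.00278). GCN4 was higher by 0.85 (SE 0.199, adjusted p = 0.00307), as were CLN3, HAP4 and SCO1 by 0.65, 0.69 and 0.56.

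These rises are relative to the median gene after TMM scaling. With library totals alone, 0 of 9 members were called higher and 4 lower against TAP, where 253 of 5134 windows were higher and 3216 lower. The median of all windows moved by -0.715, GCN4 stood at 0.16 and was not called, and CLN3, HAP4 and SCO1 turned to -0.08, -0.06 and -0.16. Without TAP replicate 1, edgeR called 0 members, without TAP replicate 2 it called 3 and without Decapping Pyrophosphohydrolase replicate 2 it called 2. With the replicate block HAP4 lost its call against TAP (adjusted p = 0.0616) and gained one against Cap-Clip (adjusted p = 0.04). Against Cap-Clip, 2 windows were higher, GCN4 by 0.99 and CLN3 by 0.58, and 2 were lower, HOL1 by -0.85 and YAP1 by -0.74, where 19.2% of all windows were higher and 36.3% changed in either direction. That count of 4 was 2 without Cap-Clip replicate 1, 7 without Decapping Pyrophosphohydrolase replicate 1 and 1 without Decapping Pyrophosphohydrolase replicate 2. Under library totals GCN4 stood at 0.40 there and CLN3 at -0.04, and again 0 of 9 members were higher and 4 lower, where 212 of 5134 windows were higher and 2782 lower. Cap-Clip against TAP gave 0 calls in 9 members and 0% of all windows by edgeR, while 524 of 5134 windows had an unadjusted p under 0.05.

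Against no enzyme, most genes rose with TAP and Cap-Clip under scaling to library totals, while 3 to 4 of the 10 members were called with each enzyme. With TAP 2 of 10 members were higher and 1 lower (72.0% and 2.21% of 5078 windows), with Cap-Clip 3 and 1 (67.4% and 2.32%), and with Decapping Pyrophosphohydrolase 1 and 2 (36.3% and 3.6%). In either direction, 74.2%, 69.8% and 39.9% of all windows were called. SCO1 was higher with all 3 enzymes, from 2.72 and 24.8 CPM (2 tags each) without enzyme to 43.5 and 38.4 CPM with TAP, 41.0 and 49.7 CPM with Cap-Clip, and 30.7 and 42.0 CPM with Decapping Pyrophosphohydrolase. The log2 fold changes were 3.05 (SE 0.648), 3.21 (SE 0.640) and 2.88 (SE 0.664). With TMM scaling the values were 0.88, 1.15 and 1.45 and none was called (adjusted p = 0.462, 0.302 and 0.151). Under that scaling 0 members were higher with any enzyme, and 3, 3 and 2 were lower with TAP, Cap-Clip and Decapping Pyrophosphohydrolase. Of all 5078 windows, 134, 112 and 168 were then higher and 420, 422 and 418 lower.

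YAP1 was higher with TAP (1.71, SE 0.435, adjusted p = 0.000309) and Cap-Clip (1.57, SE 0.440, adjusted p = 0.00114), and UGA3 with Cap-Clip (1.21, SE 0.532, adjusted p = 0.0364), but these 3 values were below 0 with TMM scaling, which moved the median of all windows by -1.98 for TAP and -1.86 for Cap-Clip. The short CPA1 window was lower with every enzyme, with 19 and 1 tags without enzyme against 1 to 14 with an enzyme. The longer CPA1 window was not called (adjusted p = 0.695 with TAP). HOL1 was lower with Decapping Pyrophosphohydrolase (-1.65, SE 0.458, adjusted p = 0.00249), but not when positions with a single tag in a library were left out (-0.055, adjusted p = 0.944). Without no-enzyme replicate 1, 0 members were called with any enzyme.

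GCN4 itself was not called with any enzyme against none, at 350.4 and 731 CPM without enzyme. In no-enzyme replicate 2, its 59 tags were placed much as with an enzyme, with 14 at the main start at 571 nt, whereas the 258 tags of replicate 1 were spread over 187 positions with a median 161 nt upstream. Without no-enzyme replicate 2, GCN4 was called higher by edgeR with TAP (1.07, adjusted p = 8.32e-05), Cap-Clip (0.83, adjusted p = 0.00224) and Decapping Pyrophosphohydrolase (1.23, adjusted p = 1.19e-05). With DESeq2 and its size factors it was called lower with TAP (-1.22, adjusted p = 0.00328) and Cap-Clip (-1.39, adjusted p = 0.000617).

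Genes around these 10 gave the following counts. For the shift, edgeR called 9.86% of all genes with Decapping Pyrophosphohydrolase against TAP, 6.8% against Cap-Clip, and 0.39% with Cap-Clip against TAP. Of 19 other genes with reported upstream frames, 14 were tested for it and 0 were called in any pair, close to those shares. In their windows, 2 of 17 were higher and 4 lower with Decapping Pyrophosphohydrolase than with TAP (23.5% and 23.9% of all windows; median log2 fold change 0.07, against -0.03 over all windows). These counts, and those of the lists that follow, use TMM scaling and so are relative to the median gene. The lower ones were TIF4631, a subunit of the cap-binding complex, by -1.22, PPR1, the pyrimidine pathway activator, by -0.95, AVO1, a TOR complex component, by -0.90, and FOL1, a folate synthesis enzyme, by -0.85.

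Among 21 tested initiation factors and Gcn2 pathway genes, which read out upstream frames, 5 were higher and 7 lower, beside the same 23.5% and 23.9% of all windows (median -0.23). SUI1, which sets the stringency of start codon choice, was higher by 1.65 and the kinase GCN2 lower by -1.21. Of the 2 of them tested for the shift, 1 was called against Cap-Clip, PRT1, a subunit of initiation factor eIF3 (6.8% of all genes). Its difference with Decapping Pyrophosphohydrolase was -63.33 points against Cap-Clip (edgeR adjusted p = 0.0447) and -50 against TAP (adjusted p = 0.102). The shift test asked for only 20 tags over the 6 libraries, and the difference gives each library equal weight, however few its tags. All 3 nonsense-mediated decay factors, which degrade many RNAs with upstream frames, were lower (NAM7 -0.94, NMD2 -0.88, UPF3 -0.63), and NMD2 had 16.5 points more tags before its first carried frame (adjusted p = 0.00227). By the distance between centred log2(CPM + 1) profiles over the 8 libraries, the genes most like the median of the 10 were SPO12, SIT4, CPR8, YPS7 and PCT1.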

How the data were processed

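The authors deposited counts, whole numbers of 5' ends per position and strand, for 8 libraries. Per the labels' protocols, the ligated oligonucleotide carried 8 random bases, polyadenylated RNA was then selected and reads of 50 nt were taken. Per the submitters' processing notes, Novoalign and R64 (sacCer3) were used; the aligner's version and whether equal barcodes were collapsed are not given in the sources used here. Positions were read as 1-based, where 82.5% of strong starts show the pyrimidine-purine step, against 5.99% and 2.03% one base to either side.

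Windows, single positions and shares were computed over all genes. edgeR 4.0.16 in R 4.3.3 was fitted across all features, with Benjamini-Hochberg adjustment. Enzyme pairs used the 6 enzyme-treated libraries with TMM, and comparisons with no enzyme used all 8 libraries scaled to totals. DESeq2 1.42.0 was an alternative. Frames needed 2 codons and the shift test 20 tags per gene over its libraries. No column was left unused.

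Same-numbered libraries are aliquots of 1 culture by design; their deviations correlated with r between 0.043 and 0.208 over 5078 windows, and the main fits had no replicate term. On simulated data with 200 changed genes, the window test for Decapping Pyrophosphohydrolase against TAP recovered 46.5% of 2-fold changes, with 5.1% of calls false. With 133 changed genes the shift test for the same pair recovered 30.1% of changes of 20 points. For Decapping Pyrophosphohydrolase against Cap-Clip it recovered 18.8%. Those shifts were simulated with the same spread for all genes, in genes with many tags and an intermediate share before the frame. The members tested for the shift lay outside that range of shares, so these recoveries do not describe them.

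Members and lists were chosen with earlier results of these data known. Named were all 10 members, their 3 strongest positions, called positions with the 3 largest log2 fold changes per comparison, and up to 4 called genes per list; the list genes named are a subset. Given outside this rule, after values were seen, are the GCN4 start at 592 nt and called positions counted by gene. A further list, of partners of the members, is not reported here.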

Additional observations from a re-analysis of the deposited data

How the results depend on the processing

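With windows of 400 nt upstream, which leave out the main GCN4 starts, the difference in the share of GCN4 tags before frame 1 between Decapping Pyrophosphohydrolase and TAP was -0.4995 points instead of -23.59, and before the first frame then carried it was 33.28 against TAP and 31.2 against Cap-Clip; the fewer positions account for this by construction. It was -23.32 with libraries thinned to equal depth and between -24.03 and -23.14 when any 1 library was left out. Member windows called against no enzyme with TAP, 3 in the report, were 6 with 400 nt, 8 with positions of at least 2 tags and 5 with DESeq2. With Cap-Clip, 4 became 7 with 400 nt and 8 with at least 2 tags, and with Decapping Pyrophosphohydrolase 3 became 5 with DESeq2. Against TAP, 6 called windows became 2 with DESeq2, and against Cap-Clip 4 became 2 with all 8 libraries in the fit. With each library left out in turn, counts ranged from 0 to 4 (TAP against none), 0 to 5 (Cap-Clip against none), 0 to 4 (Decapping Pyrophosphohydrolase against none), 0 to 0 (Cap-Clip against TAP), 0 to 6 (Decapping Pyrophosphohydrolase against TAP) and 1 to 7 (against Cap-Clip). Members called for a shift against Cap-Clip, 1 in the report, were 2 with the window ended at the start codon, frames carried by 25%, no filter or the replicate block, the second being HAP4, and 1 to 2 with a library left out, as against TAP; Cap-Clip against TAP stayed at 0 to 0. Called member positions, 23 against TAP and 23 against Cap-Clip, were 35 and 35 with at least 10 tags in place of the filter and 13 and 11 with DESeq2, and 8 to 32 and 8 to 31 with a library left out (0 to 0 for Cap-Clip against TAP). The replicate block, which pairs aliquots of 1 culture, moved no other count of member calls by over 1.5 times.

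Signs turned as follows. With TMM scaling, YAP1 was at -0.4522 with TAP and -0.4946 with Cap-Clip against none and UGA3 at -0.9054 with Cap-Clip. With DESeq2 these were -0.5601, -0.5946 and -0.9361. Without no-enzyme replicate 1, HOL1 with Decapping Pyrophosphohydrolase was at 8.387 against a library with 0 tags, a value that depends on the prior count; with any 1 library left out it ranged from -1.858 to 8.387. With library totals in enzyme pairs, CLN3, SCO1 and HAP4 were at -0.07787, -0.1627 and -0.05881 against TAP and CLN3 at -0.03596 against Cap-Clip. The cause was not tested. No-enzyme replicate 2, with 80721 tags, limits all comparisons with no enzyme, and INO2, HAP4, HOL1 and UGA3 had under 30 tags in at least 1 enzyme-treated library.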
